A study of Mus musculus with 9 samples.

Results

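The genes described here present peptides on MHC class I molecules, together with the catalytic subunits of the immunoproteasome that cut those peptides. They are the 10 rows of the deposited table with the symbols H2-K1, H2-D1, B2m, Tap1, Tap2, Tapbp, Nlrc5, Psmb8, Psmb9 and Psmb10, of 38215 genes in all, and were chosen by name. These genes and the lists described below were chosen with earlier results of these data known. Their counts beside the share of all genes are therefore descriptions. RNA was sequenced from bone marrow of 9 C57BL/6J mice, from which cells carrying both GFP and mCherry were taken in the LSK gate (Lineage- Sca1+ Kit+), the gate that holds blood stem cells and multipotent progenitors. All 9 mice carried Jak2V617F, an activating change in the kinase Jak2 seen in myeloproliferative neoplasms, and all had received tamoxifen. In 5 mice (numbers 1 to 5) the title reads EV and the genotype is Jak2V617F alone; in the other 4 (numbers 1, 2, 3 and 5) the genotype is Jak2V617F-sgZrsr2, with loss of Zrsr2, a protein that recognizes the 3′ splice site of the rare U12-type introns. The labels give tamoxifen without naming what it acts on, and they do not spell out EV or what GFP and mCherry mark. The comparison asked whether the class I genes differed when Zrsr2 was lost in cells with mutant Jak2.

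In nearly all nucleated cells, proteasomes cut cytosolic proteins into peptides, the transporter Tap1/Tap2 moves these into the endoplasmic reticulum, and tapasin (Tapbp) holds the transporter next to empty class I heavy chains paired with beta-2 microglobulin (B2m). Interferon gamma raises these genes, in part through the transcription factor Irf1, and exchanges the constitutive catalytic subunits Psmb5, Psmb6 and Psmb7 for Psmb8, Psmb9 and Psmb10. Nlrc5 is the class I transactivator: it binds no DNA itself and is recruited to the SXY module of class I promoters by Rfx5, Rfxap, Rfxank, CREB or ATF1 and NF-Y.

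The promoter letters that these regulators are known for were looked up in RefSeq promoters of GRCm38.p6, each 300 bases long, and the X2 box and NF-kappaB matches are shown because the heavy chains and B2m share them. Of the members, 8 matched by symbol, with 9 promoters between them; Tap2 and Nlrc5 had no entry. On both strands, the core of the X2 box (TGACG), to which CREB and ATF1 bind, was found for 5 of the 8 genes, against 20.8% of all 32851 promoters. A window around it, read along the gene's own strand with the match in capitals, follows for 4 of them.
H2-K1, chr17:34000374-34000398, minus strand: cggacactgtTGACGcgcagtcagc
H2-D1, chr17:35262983-35263007, plus strand: gggacactgaTGACGcgctggcagg
B2m, chr2:122147599-122147623, plus strand: aggagactggTGACGacctccggat
Tap1, chr17:34187460-34187484, plus strand: cagagacaggTGACGacagagggtc
Psmb9, the fifth gene, is transcribed away from Tap1, and its match is the same 5 bases read from the other strand. The CCAAT box, the Y box bound by NF-Y, was found for 6 of the 8 genes, against 37.4% of all promoters.

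A match to the NF-kappaB consensus was found for 3 of the 8 genes, against 8.46% of all promoters. In H2-K1 and H2-D1 it consists of 2 matches that overlap, of which the first is in capitals.
H2-K1, chr17:34000439-34000468, minus strand: gcccagggctGGGGATTCCCcatctccaca
H2-D1, chr17:35262913-35262942, plus strand: gcccagggctGGGGATTCCCcatctcctca
B2m, chr2:122147551-122147580, plus strand: actgaaaatgGGAAAGTCCCtttgtaacct
The core of the interferon-stimulated response element (GAAA, any 2 bases, GAAA, on both strands) was found in B2m alone among the 8, against 3.44% of all promoters, and the gamma-activated site (TTCNNNGAA) in Psmb8 alone, against 8.3%.
B2m, chr2:122147538-122147567, plus strand: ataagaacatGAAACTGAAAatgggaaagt
Psmb8, chr17:34198088-34198116, plus strand: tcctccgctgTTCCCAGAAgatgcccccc
The 3 B2m windows lie close together, the interferon element and the NF-kappaB match side by side and not overlapping. These are matches of letters in one window per start site and say nothing of binding in these cells.

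Libraries held 23238264 to 45585531 expected counts, and 14944 genes passed the filter on low counts, all 10 members among them. Zrsr2 itself, the targeted gene, was at 53.4 ± 4.94 CPM (SD, n = 5; CPM, counts divided by the library's total after TMM scaling) with EV and 38.9 ± 5.30 CPM (SD, n = 4) with sgZrsr2, and the groups did not overlap (log2 fold change -0.46, SE 0.12; edgeR unadjusted p = 0.00321, adjusted p = 0.714). The sort markers were present: Kit ranged from 247 to 632 CPM, Cd34 from 544 to 705 CPM and Ly6a, which encodes Sca1, from 14.8 to 49.3 CPM. EV mouse 5 and sgZrsr2 mice 3 and 5 stood apart in summed erythroid and megakaryocyte markers. The summed level of the 10 erythroid genes found of 11 listed was 334 CPM in EV mouse 5 and 461 and 346 CPM in sgZrsr2 mice 3 and 5, against 120.5 to 234 CPM elsewhere, and that of 10 megakaryocyte genes 368, 452 and 532 CPM, against 162 to 309 CPM. None of the genes in either list was at 0 in all libraries. The libraries of sgZrsr2 mice 1 and 2 were the nearest pair within a group: over 2396 genes their chi-square per degree of freedom was 15.0, where other pairs gave 51.1 to 561. They differed by more than counting noise, but amplification by PCR can add such variation, so this does not show that they are independent. They were kept as 2 samples, as the titles number them as different mice. Whether EV and sgZrsr2 mice share litters or processing days is not given, so p-values measure the spread between these samples.

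No member passed the genome-wide test: 0 of 10 had an adjusted p under 0.05 in edgeR's quasi-likelihood test with Benjamini-Hochberg adjustment, where 0% of the 14944 genes did, and 0 of 10 had an unadjusted p under 0.05, where 6.85% of all genes did. The lowest adjusted p over all genes was 0.714. DESeq2 called 16 genes at the adjusted threshold and limma-voom 0, none of them a member, and at an unadjusted p under 0.05 limma-voom called 3 members (H2-D1, B2m and Tap1), where it called 17.1% of all genes, and DESeq2 called 0, where it called 8.53%. In none of the 10 were the groups free of overlap, which held for 3.06% of all genes. The fitted log2 fold change, sgZrsr2 over EV, was above 0 in 8 members and below 0 in 2, from -0.15 to 0.23 with a median of 0.15, where the median of all genes tested was -0.01 and 51.5% of them were below 0. The 8 were the heavy chains, B2m, the transporter, tapasin, Nlrc5 and Psmb10, and the 2 were Psmb8 and Psmb9.

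**Figure D1:**
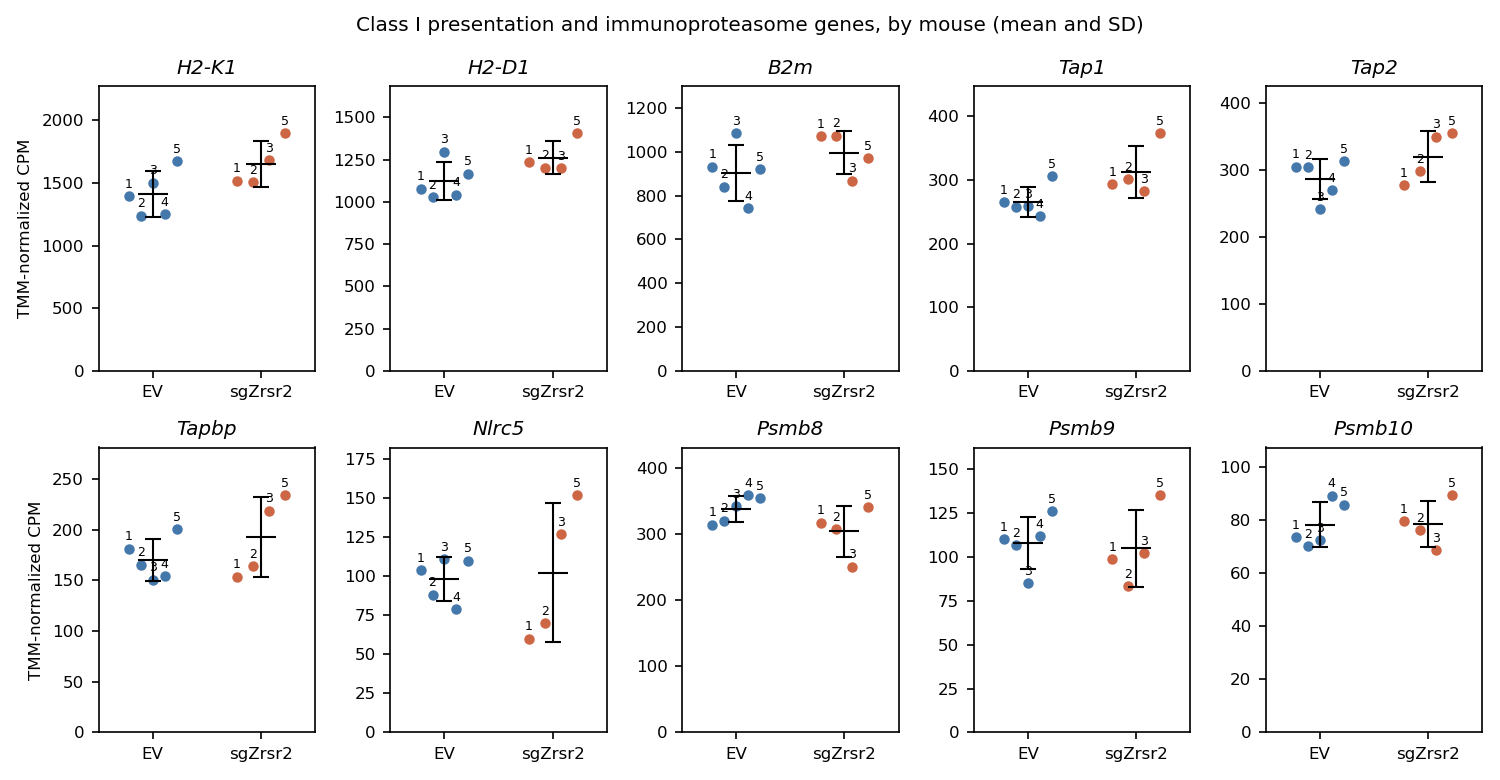
Level of each gene in TMM-normalized CPM (y axis, from 0) in the 5 EV and 4 sgZrsr2 mice (points, numbered by mouse), with group mean and SD in black. In every panel the groups overlap; for Nlrc5 sgZrsr2 mice 1 and 2 lie below all EV mice and sgZrsr2 mice 3 and 5 above them.

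The classical heavy chains H2-K1 and H2-D1 carry the peptide to the cell surface. H2-K1 (ENSMUSG00000061232; GRCm38 chromosome 17, 33996017 to 34000333, minus strand) measured 1396, 1239, 1503, 1252 and 1674 CPM with EV (mice 1 to 5 in order) and 1518, 1508, 1682 and 1895 CPM with sgZrsr2 (mice 1, 2, 3 and 5 in order, as throughout). Every sgZrsr2 library exceeded 4 of the 5 EV libraries, and EV mouse 5 lay among the sgZrsr2 values. The log2 fold change was 0.22 (SE 0.13; 95% interval -0.05 to 0.50; edgeR unadjusted p = 0.101, adjusted p = 0.714), and a two-sided exact permutation test of the group labels gave p = 0.0873.

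H2-D1 (ENSMUSG00000073411; chromosome 17, 35262730 to 35267499, plus strand) was at 1079, 1027, 1297, 1043 and 1167 CPM with EV and at 1234, 1203, 1202 and 1405 CPM with sgZrsr2. Only EV mouse 3 reached into the sgZrsr2 range. Its log2 fold change was 0.17 (SE 0.11; 95% interval -0.07 to 0.41; edgeR adjusted p = 0.734; exact permutation p = 0.0873). Both genes had fractional counts in 9 of 9 libraries: RSEM divides reads that match several genes, and class I heavy chains are close paralogs, so the division of reads between them is uncertain.

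B2m (ENSMUSG00000060802; chromosome 2, 122147686 to 122153083, plus strand), the light chain that all classical class I molecules share, had whole counts in every library. It was at 932, 840.0, 1083, 742 and 919.7 CPM with EV and 1073, 1073, 869 and 971 CPM with sgZrsr2. Here sgZrsr2 mice 1 and 2 were the high libraries of their group and mouse 3 the low one, unlike for H2-K1. The log2 fold change was 0.14 (SE 0.13; edgeR adjusted p = 0.785; exact permutation p = 0.246).

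The transporter subunits and tapasin load the peptide. Tap1 (ENSMUSG00000037321; chromosome 17, 34187553 to 34197225, plus strand) was at 265, 258, 259, 243 and 306 CPM with EV and at 294, 301, 283 and 373 CPM with sgZrsr2. As for H2-K1, EV mouse 5 was the only EV library within the sgZrsr2 range, and sgZrsr2 mouse 5 was the highest of all. Tap1 had the smallest p of the members (log2 fold change 0.23, SE 0.12; 95% interval -0.02 to 0.49; edgeR unadjusted p = 0.0679, adjusted p = 0.714). Its exact permutation p of 0.0476 was the only one of the 10 under 0.05. The share of all genes under 0.05 in the permutation test was not computed, so this count does not set Tap1 apart.

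Tap2 (ENSMUSG00000024339; chromosome 17, 34203527 to 34216321, plus strand) was at 305, 304, 241, 269.7 and 313 CPM with EV and 277, 298, 349 and 354 CPM with sgZrsr2. Tapbp (ENSMUSG00000024308; chromosome 17, 33915899 to 33929288, plus strand) was at 181, 165, 150.5, 154 and 200.4 CPM with EV and 154, 164, 219 and 234 CPM with sgZrsr2. In both, sgZrsr2 mice 3 and 5 exceeded all EV libraries, while sgZrsr2 mice 1 and 2 lay within the EV range. The log2 fold changes were 0.16 (SE 0.12) for Tap2 and 0.18 (SE 0.15) for Tapbp, with edgeR adjusted p of 0.754 and 0.769. Over 3421 bases the Tapbp row overlaps Zbtb22 on the same strand, which was at a mean of 53.6 CPM, so reads there may belong to either gene.

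Nlrc5 (ENSMUSG00000074151; chromosome 8, 94472763 to 94527272, plus strand) was at 104, 88.3, 111, 79.0 and 110.0 CPM with EV. With sgZrsr2, mice 1 and 2 measured 60.1 and 69.8 CPM, and mice 3 and 5 measured 127 and 152 CPM. All 4 sgZrsr2 libraries therefore lay outside the EV range, with a pair on either side of it. The means were close, 98.4 ± 14.2 CPM (SD, n = 5) with EV and 102 ± 44.4 CPM (SD, n = 4) with sgZrsr2, and the coefficient of variation was 14.4% and 43.4%. The log2 fold change of 0.06 (SE 0.26; 95% interval -0.51 to 0.62; edgeR adjusted p = 0.964) averages over this split. It was -0.20 without sgZrsr2 mouse 5 and -0.55 (SE 0.17; edgeR unadjusted p = 0.0136, adjusted p = 0.36) without EV mouse 5 and sgZrsr2 mice 3 and 5, the libraries with high erythroid and megakaryocyte markers, whose part in the result was not tested. The low libraries were also the shallowest, at 23238264 and 25857723 counts, and detected the fewest genes, 16169 and 16819 against 18354 to 19411; the part of depth in the result was not tested. The table gives Nlrc5 the biotype lincRNA and a start 38407 bases downstream of that of the GENCODE M21 gene, which is protein-coding. Its counts may therefore cover only part of the gene, and the exons were not compared.

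The 3 immunoproteasome subunits had log2 fold changes close to or below 0. Psmb8 (ENSMUSG00000024338; chromosome 17, 34197721 to 34201454, plus strand), which supplies the chymotrypsin-like activity, was at 314, 321, 342, 359 and 354 CPM with EV and 317, 307, 251 and 341 CPM with sgZrsr2. Mouse 3 with sgZrsr2 was the lowest library. Its log2 fold change was -0.15 (SE 0.11; 95% interval -0.40 to 0.09; edgeR adjusted p = 0.744; exact permutation p = 0.103).

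Psmb9 (ENSMUSG00000096727; chromosome 17, 34181988 to 34187764, minus strand) was at 110.1, 107, 85.3, 112 and 126.003 CPM with EV and 98.7, 83.4, 102 and 135 CPM with sgZrsr2 (log2 fold change -0.04, SE 0.15). Psmb10 (ENSMUSG00000031897; chromosome 8, 105935728 to 105938392, minus strand) was at 73.5, 70.2, 72.4, 89.1 and 85.7 CPM with EV and 79.5, 76.1, 68.6 and 89.3 CPM with sgZrsr2 (log2 fold change 0.0035, SE 0.11). The 95% intervals were -0.38 to 0.30 for Psmb9 and -0.25 to 0.26 for Psmb10, and the edgeR adjusted p were 0.954 and 0.994. In both genes the groups covered nearly the same range. Psmb9 and Tap1 overlap by 212 bases on opposite strands. Use of strand in the counting is not given in the sources used here, and without it reads there cannot be told apart.

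**Figure D2:**
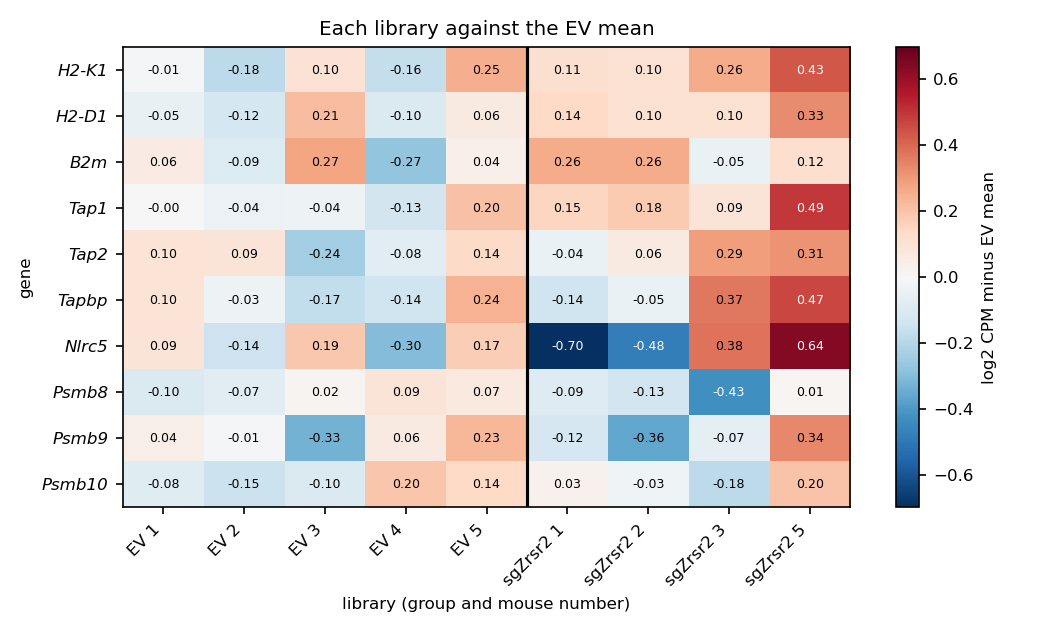
Difference in log2 CPM between each library (columns) and the EV mean of the same gene (rows), in red above and blue below the mean. EV mouse 5 and sgZrsr2 mouse 5 are above the EV mean in all 10 genes, and the widest spread among sgZrsr2 mice is that of Nlrc5.

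Some mice differed from the EV mean in nearly every member. EV mouse 5 and sgZrsr2 mouse 5 were each above the EV mean in 10 of 10 members, with median differences of 0.16 and 0.33 on the log2 scale. EV mouse 2 was below it in 9 of 10, with a median of -0.08, and EV mouse 4 in 7 of 10, with a median of -0.11. In sgZrsr2 mice 1, 2 and 3 the members were divided, with 5, 5 and 6 of 10 above the EV mean. The highest library was sgZrsr2 mouse 5 in 8 of the 10 members, the exceptions being B2m (EV mouse 3) and Psmb8 (EV mouse 4).

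Levels of different genes were compared as CPM per kilobase of merged exons in GENCODE M21, for the 9 members other than Nlrc5 whose coordinates matched. With EV, B2m was highest at 1050.5 ± 147 CPM per kb (SD, n = 5), followed by H2-K1 at 481 ± 62.0 and H2-D1 at 435 ± 43.3 CPM per kb. The ranges of the heavy chains overlapped with each other and not with that of B2m. Next came Psmb8 at 99.98 ± 5.88 CPM per kb and Tap2 at 75.8 CPM per kb (range 63.8 to 82.9), whose ranges did not overlap. Tap1 (48.6 ± 4.31), Tapbp (46.9 ± 5.69) and Psmb10 (45.9 ± 5.04 CPM per kb) did not differ beyond their spread, and Psmb9 was lowest at 29.5 ± 4.01 CPM per kb. The order of the means was the same with sgZrsr2. The merged length counts the exons of every annotated transcript. It was 0.860 kb for B2m, 1.705 kb for Psmb10, 3.381 kb for Psmb8 and 3.660 kb for Psmb9. Which transcripts were present was not measured, so the order depends on these lengths. In CPM with EV, Psmb9 (108) was above Psmb10 (78.2).

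Because immunoproteasome subunits take the places of constitutive ones, each was set against its counterpart within the same library, where scaling cancels. The log2 ratio of Psmb8 to Psmb5 was 1.56 ± 0.20 (SD, n = 5) with EV and 1.70 ± 0.17 (SD, n = 4) with sgZrsr2, a difference of 0.15. For Psmb9 to Psmb6 it was -0.13 ± 0.38 and 0.05 ± 0.40, a difference of 0.18, and for Psmb10 to Psmb7 -0.49 ± 0.28 and -0.17 ± 0.31, a difference of 0.33. None passed in two-sided exact permutation tests (p = 0.286, 0.508 and 0.151; Benjamini-Hochberg adjusted over the 3 ratios, 0.429, 0.508 and 0.429). In all 3 ratios sgZrsr2 mice 3 and 5 were above every EV library while sgZrsr2 mice 1 and 2 lay within the EV range. The ratio of Psmb9 to Psmb6 changed sign, to -0.09, without EV mouse 5 and sgZrsr2 mice 3 and 5.

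**Figure D3:**
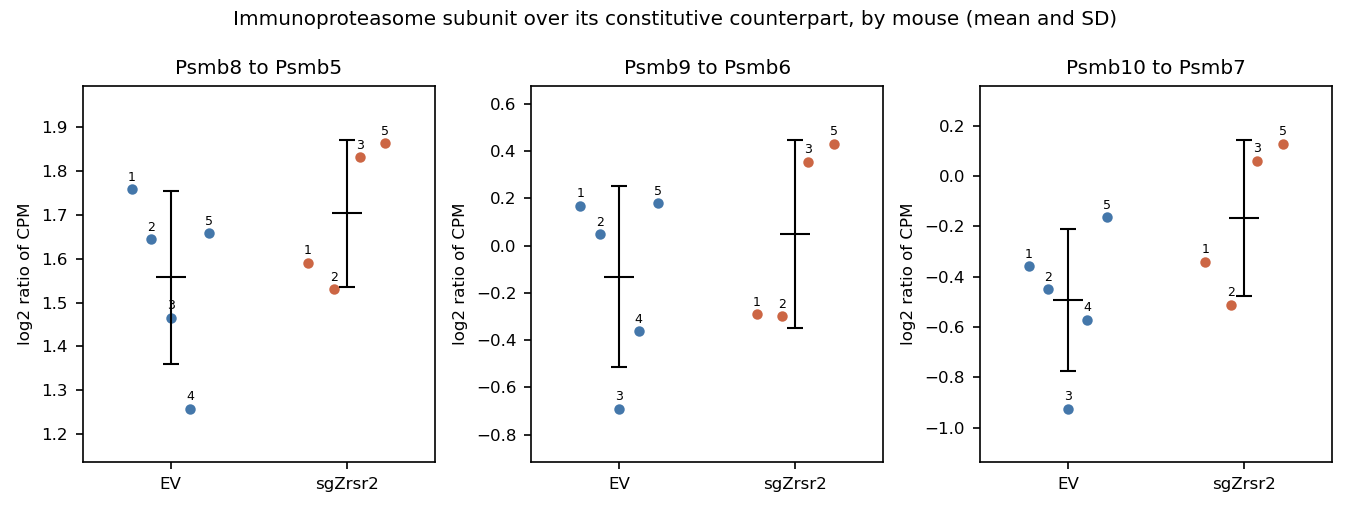
Log2 ratio of the CPM of each immunoproteasome subunit to that of the constitutive subunit it replaces (y axis), by mouse (numbered points), with mean and SD. Groups overlap in each panel, and sgZrsr2 mice 3 and 5 are the 2 highest libraries in all 3.

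These libraries were also those with high erythroid and megakaryocyte markers, whose part in the ratios was not tested.

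The constitutive counterparts had lower means with sgZrsr2. All 14 genes of the constitutive 20S core had a log2 fold change below 0, from -0.32 to -0.16 with a median of -0.24, and 0 of 14 had an unadjusted p under 0.05 in edgeR, where 2.98% of all genes were lower at that p. When limma-voom weighted libraries by quality, 6 of 14 were below 0 and the median was 0.0084. Without EV mouse 5 and sgZrsr2 mice 3 and 5, again 6 of 14 were below 0 and the median was 0.0061. Psmb5 was at 116 ± 22.1 CPM (SD, n = 5) with EV and 94.0 ± 16.7 CPM (SD, n = 4) with sgZrsr2, Psmb6 at 119 ± 20.8 and 101 ± 16.6 CPM, and Psmb7 at 111 ± 21.8 and 89.2 ± 19.3 CPM. In each of these 3, sgZrsr2 mouse 3 was the lowest library, at 70.5, 80.0 and 65.7 CPM.

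Of 9 genes for proteasome activators and assembly, 8 had a log2 fold change below 0 and 1 was lower at an unadjusted p under 0.05, against 2.98% of all genes. That gene was Psmg1, a chaperone of 20S assembly, at 35.2 ± 5.33 CPM (SD, n = 5) with EV and 25.0 ± 2.81 CPM (SD, n = 4) with sgZrsr2 (log2 fold change -0.49, SE 0.14; edgeR unadjusted p = 0.00504, adjusted p = 0.714). The interferon-inducible PA28 activator subunits were at 237 ± 33.2 and 223 ± 31.3 CPM for Psme1 and at 92.3 ± 11.4 and 74.9 ± 12.4 CPM for Psme2 (log2 fold changes -0.09 and -0.30). Neither passed the edgeR test, with adjusted p of 0.873 and 0.714.

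The remaining class I heavy chains and class I-like genes mostly had higher means with sgZrsr2. Of 16 listed, 14 were tested, 12 of these had a log2 fold change above 0, and the median was 0.34. Among the 12 are H2-K2, annotated as a pseudogene (2.55 CPM with EV, 3.68 CPM with sgZrsr2), and H2-T10, annotated as a polymorphic pseudogene. At an unadjusted p under 0.05 there were 5 higher and 0 lower, against 3.87% of all genes higher, and 0 passed the adjusted threshold. The list was chosen with earlier results of these data known, so this count is no independent test. H2-T23, which encodes Qa-1, the ligand of the inhibitory receptor of natural killer cells, was at 207, 173, 162, 154 and 217 CPM with EV and 212, 205, 308 and 282 CPM with sgZrsr2 (log2 fold change 0.46, SE 0.16; edgeR unadjusted p = 0.0143, adjusted p = 0.714). H2-Q4 was at 300.4, 256, 362, 227 and 310.1 CPM with EV and 398, 369, 388 and 356 CPM with sgZrsr2 (log2 fold change 0.38, SE 0.14; edgeR unadjusted p = 0.0184). In H2-Q4, EV mouse 3 alone reached into the sgZrsr2 range; in H2-T23, EV mice 1 and 5 did. The other 3 were H2-Q6 (0.51), H2-T22 (0.28) and H2-Q10 (0.49), named after their values were seen, with log2 fold changes in parentheses. H2-Q6 was at 185 to 367 CPM with EV and 370.4 to 413 CPM with sgZrsr2, with a narrow gap between the groups. It was the only gene of the 14 with groups that did not overlap, which held for 3.06% of all genes.

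The count of 5 was 1 (H2-T22) without EV mouse 5 and sgZrsr2 mice 3 and 5, where 11% of all genes were called. Without sgZrsr2 mouse 3 it was 1 (H2-Q4), where 4.94% of all genes were called. It was 2 without EV mouse 2, without EV mouse 4 or without sgZrsr2 mouse 5 (5.08%, 4.12% and 7.58% of all genes). These shares count both directions. The median log2 fold change stayed above 0 in each of these settings, between 0.13 and 0.41 over all settings run. All 5 had fractional counts in at least 8 libraries, and H2-Q6 and H2-Q7 are near-identical copies, so their levels are uncertain.

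**Figure D4:**
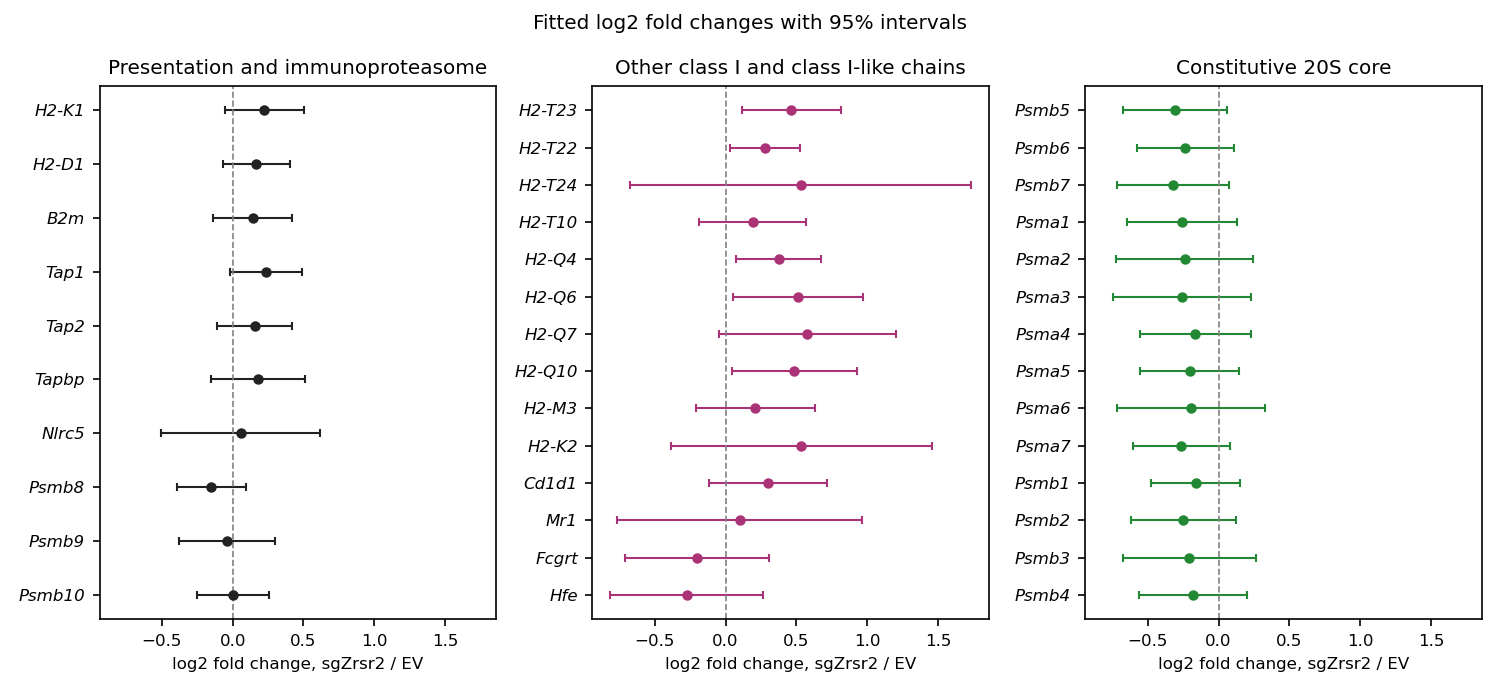
Fitted log2 fold change, sgZrsr2 over EV (x axis), with 95% intervals for the 10 members, the 14 other class I genes tested and the 14 genes of the constitutive 20S core. Intervals of all members and of all 20S genes include 0; those of H2-T23, H2-T22, H2-Q4, H2-Q6 and H2-Q10 do not, before adjustment for the number of genes.

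Chaperones and peptidases of the loading pathway gave a mixed picture. Of 15 tested, 4 had a log2 fold change above 0 and 11 below, with a median of -0.09; 1 was higher and 2 lower at an unadjusted p under 0.05, against 3.87% and 2.98% of all genes. Calreticulin (Calr), which holds the heavy chain in the loading complex, was at 1341 ± 157 CPM (SD, n = 5) with EV and 1268 ± 206 CPM (SD, n = 4) with sgZrsr2. Pdia3, its disulfide isomerase, was at 482 ± 47.2 and 431 ± 77.3 CPM, and Erap1, which trims peptides to length, at 141 ± 12.3 and 137 ± 10.3 CPM. The log2 fold changes of these 3 were -0.08, -0.16 and -0.05. The smallest p belonged to Hspa5, the general chaperone BiP, at 1418 ± 401 and 828 ± 136 CPM (log2 fold change -0.78, SE 0.21; edgeR unadjusted p = 0.00347, adjusted p = 0.714), and to the aminopeptidase Lnpep, at 67.0 ± 5.67 and 83.4 ± 4.98 CPM (0.32, SE 0.10; unadjusted p = 0.00782).

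Among 22 regulators tested, 16 had a log2 fold change above 0, the median was 0.06, and 1 was higher at an unadjusted p under 0.05, a share near the 3.87% of all genes. The smallest p belonged to Ifnar1, a chain of the type I interferon receptor (96.2 ± 11.5 CPM with EV and 114 ± 7.22 CPM with sgZrsr2; log2 fold change 0.25, SE 0.11; edgeR adjusted p = 0.714). Ifngr1, a chain of the interferon gamma receptor, was next, at 106 ± 22.9 and 141 ± 33.4 CPM (log2 fold change 0.40, SE 0.19). Interferon gamma itself (Ifng) and Ifnb1 did not reach the filter.

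Irf1, a transcription factor that interferons induce, was at 116 ± 13.9 and 137 ± 10.4 CPM (log2 fold change 0.24, SE 0.11; edgeR unadjusted p = 0.0633, adjusted p = 0.714; exact permutation p = 0.0476). As for Tap1, the share of all genes under 0.05 in the permutation test was not computed, so this p does not set Irf1 apart. Rfx5 measured 39.8 to 66.1 CPM with EV, 46.4 and 44.7 CPM with sgZrsr2 in mice 1 and 2, and 88.0 and 70.3 CPM in mice 3 and 5. Ciita, the class II transactivator and a relative of Nlrc5, measured 4.18 to 10.2 CPM with EV, and with sgZrsr2 1.78 and 2.64 CPM in mice 1 and 2 and 8.15 and 12.5 CPM in mice 3 and 5. Like Nlrc5, these 3 were higher in sgZrsr2 mice 3 and 5 than in mice 1 and 2, while Ifngr1 lay the other way, at 161 and 175 CPM in mice 1 and 2 and 102 and 125 CPM in mice 3 and 5.

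Since Nlrc5 acts on the class I promoters, its log2 CPM was correlated with that of the other 9 members over the 9 libraries. Tapbp gave r = 0.79 (rho = 0.63; exact permutation p = 0.0124 and 0.076; Benjamini-Hochberg adjusted over the 9 relations 0.111 and 0.436) and H2-K1 r = 0.59 (rho = 0.52; exact permutation p = 0.0962 and 0.162; adjusted 0.345 and 0.485). None of the 9 passed after adjustment. The farthest libraries from the median of Nlrc5 were sgZrsr2 mice 1 and 2, in which H2-K1, at 1518 and 1508 CPM, was not low. Without these 2, r was 0.82 for Tapbp, 0.95 for H2-K1, 0.89 for H2-D1, 0.86 for Tap1, 0.64 for B2m and 0.60 for Tap2 over the 7 libraries left, which differ in depth and in erythroid and megakaryocyte markers. For the immunoproteasome subunits it was -0.31 (Psmb8), 0.29 (Psmb9) and 0.05 (Psmb10), against -0.09, 0.52 and 0.02 over all 9. Over all 9 libraries r was 0.41 for H2-D1, 0.39 for Tap1, -0.13 for B2m and 0.54 for Tap2. The 2 libraries left out were picked by their Nlrc5 values and are those with low Nlrc5 but H2-K1 not low. The r over the other 7 is therefore no test of the relation, and no p is given for it.

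**Figure D5:**
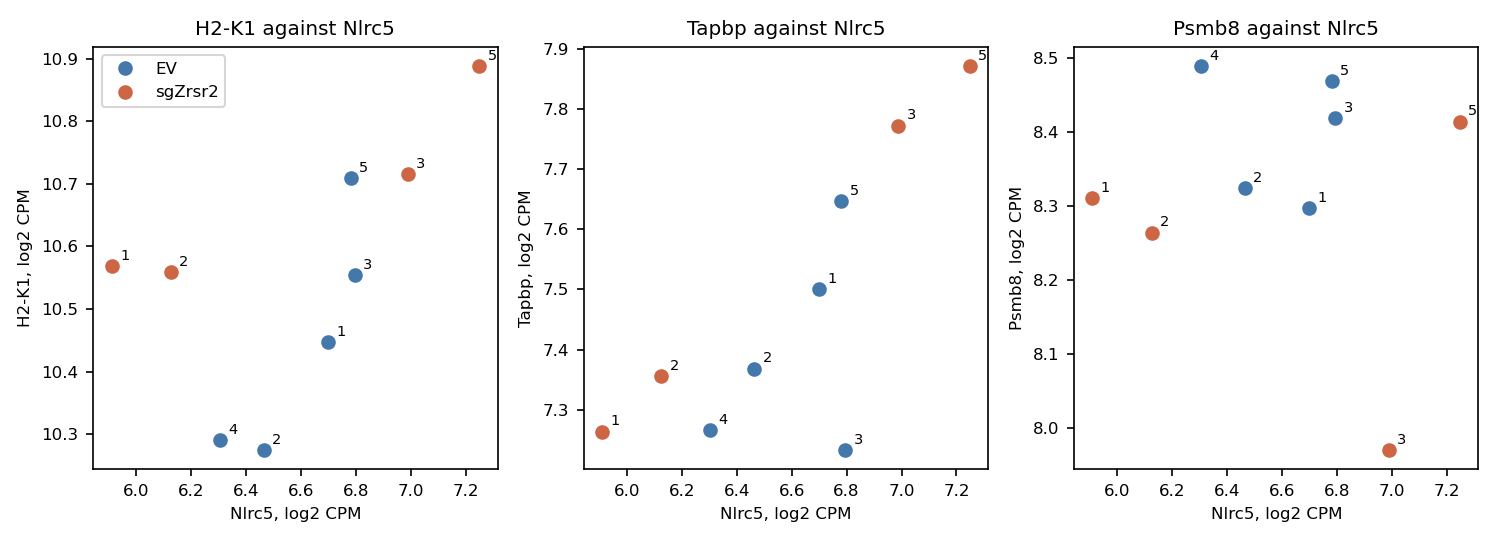
Log2 CPM of H2-K1, Tapbp and Psmb8 (y axes) against that of Nlrc5 (x axis), 1 point per library, numbered by mouse and coloured by group. In the H2-K1 panel sgZrsr2 mice 1 and 2 lie at the lowest Nlrc5 with H2-K1 above 4 of the 5 EV libraries; Psmb8 shows no such order.

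Over the 45 pairs of members the median r of log2 CPM was 0.39, from -0.48 for B2m with Psmb9 to 0.91 for Tap2 with Tapbp, given as a description over 9 libraries that differ in depth and makeup. Among 9620 genes whose mean reached 10 CPM, the 5 most like H2-K1 were F2r (r = 0.98), H2-Q7 (0.98), Rab27b (0.95), Huwe1 (0.95) and H2-Q10 (0.94). H2-Q7, H2-Q10 and H2-K1 itself had fractional counts in all 9 libraries, and the part of shared reads in their likeness was not tested. The 5 most like Psmb8 were Rfc5 (r = 0.98), Mcm5 (0.97), Gm8325 (0.97), Tyms (0.96) and Rpa1 (0.96). The 2 sets share no gene. Since these genes were picked for the highest r, no test is given.

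Other genes of the same stretch of chromosome were evenly divided. H2-K1 and H2-D1 enclose 1.27 Mb of chromosome 17 with 6 members and 70 other genes tested. Of the 70, 35 had a log2 fold change above 0 and 35 below, with a median of 0.0015, and 3 had an unadjusted p under 0.05, against 6.85% of all genes. The 6 members there, H2-K1, H2-D1, Tap1, Tap2, Psmb8 and Psmb9, had a median of 0.16.

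Genes that interferons induce outside antigen presentation, and those of class II presentation, are the nearest relatives of this set. Of 25 interferon-stimulated genes, 18 had a log2 fold change above 0, and the median of the 25 was 0.27. At an unadjusted p under 0.05 in edgeR there were 0, against 6.85% of all genes. The smallest p belonged to Ddx58, a sensor of viral RNA (33.1 ± 8.02 CPM with EV, 44.6 ± 9.84 CPM with sgZrsr2), and Ifi27l2a (4.76 ± 1.83 and 2.45 ± 1.67 CPM), which lay in opposite directions. Of 10 class II genes 7 were below 0, with a median of -0.24. At an unadjusted p under 0.05, 1 of the 10 was lower, against 2.98% of all genes. That gene was the lysosomal protease Ctss (60.4 ± 13.8 and 43.8 ± 5.06 CPM, edgeR unadjusted p = 0.0167, adjusted p = 0.714). The class II chain H2-Ab1 was at 93.9 ± 17.3 and 76.7 ± 19.4 CPM. Fewer cells of a type and less RNA per cell cannot be told apart in these bulk samples. Summed markers of monocytes and dendritic cells, which carry much class II, were at 287 to 610 CPM with EV and 304 to 464 CPM with sgZrsr2, over 9 genes of which none was at 0 throughout.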

How the data were processed

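RNA sequencing counts of 9 libraries, 5 EV and 4 sgZrsr2, were used, grouped by the titles. Per the submitters' processing notes, cutadapt 1.11, RSEM 1.2.30 and GRCm38 were used; the authors deposited RSEM expected counts per gene, not normalized. The aligner, annotation and strandedness are not given in the sources used here. Per the labels' protocols, polyadenylated RNA from 5 ng of total RNA was amplified by PCR, which can add variation that is not biological.

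Expected counts were rounded. A filter on low counts (edgeR's filterByExpr, with 10 counts as its minimum and 15 as its minimum total) kept 14944 genes, which were scaled with TMM factors and compared with edgeR 4.0.16 (glmQLFit, glmQLFTest, R 4.3.3), adjusted over all genes tested at a threshold of 0.05. The standard error is the log2 fold change over the square root of F. Exact permutation tests used log2 CPM with a prior count of 2. The alternatives were other scaling and filters, DESeq2 1.42.0, limma-voom (limma 3.58.1), the mouse number as a block, unrounded counts, sgZrsr2 mice 1 and 2 averaged, and libraries left out. Named genes were the members, the regulators, partners and subunits given always, the 2 smallest p of each list, and the 5 genes most like H2-K1 and Psmb8. Promoters and merged exon lengths came from RefSeq (GRCm38.p6) and GENCODE M21; the NF-kappaB, CCAAT and TGACG searches were added after the data were seen. Members and lists were chosen with earlier results of these data known. Libraries held 23238264 to 45585531 counts; members had at least 1350 counts in every library.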

Additional observations from a re-analysis of the deposited data

Results flagged for a closer look

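Among 26 sets of values (10 genes and 3 subunit ratios, in each group), 1 held a library far from the rest of its group, where chance alone gives about 1 in 20. H2-D1 was at 1410 CPM (rounded to 3 digits) in sgZrsr2 mouse 5 against 1200 to 1230 CPM in the other 3 sgZrsr2 mice, and the gap to the next mouse took 0.842 of the group's range, above Dixon's 95% critical value. Without this mouse the log2 fold change of H2-D1 was 0.11, and that of H2-K1, highest in the same library, 0.15. The cause was not tested.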

How the results depend on the processing

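In all 10 alternatives and all 9 fits that left out 1 library, 0 members passed the adjusted threshold. H2-K1, H2-D1, B2m, Tap1, Tap2 and Psmb8 kept their direction throughout, and H2-K1 ranged from 0.15 to 0.29. The median log2 fold change of the members stayed above 0, from 0.04 without EV mouse 5 and sgZrsr2 mice 3 and 5 to 0.19, and from 0.0862 to 0.193 when 1 library was left out. Members at an unadjusted p under 0.05 numbered 3 under limma-voom with quality weights (H2-D1, B2m and Tap1, against 17.1% of all genes). Without those 3 libraries there was 1 (Nlrc5, against 11% of all genes, about the same share). With 1 library left out there were 0 to 2. These were Tap1 and H2-K1 without EV mouse 5 (8.73% of all genes) and Tap1 without sgZrsr2 mouse 3 (4.94% of all genes). Over all genes, 16 passed under the DESeq2 Wald test and 1 with sgZrsr2 mice 1 and 2 averaged, none of them a member. The cause was not tested.

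Signs turned as follows. Psmb10 was at -0.0042 with upper-quartile factors and -0.0011 without a filter. Nlrc5 was at -0.21 under limma-voom, -0.12 with the replicate block and -0.55 without EV mouse 5 and sgZrsr2 mice 3 and 5, where Tapbp was at -0.0264, the log2 ratio of Psmb9 to Psmb6 at -0.0862 and the 20S median at 0.0061 (0.0084 under limma-voom). Psmb9 was at 0.0147 with mice 1 and 2 averaged. With 1 library left out, Nlrc5 ran from -0.20 to 0.24, Psmb9 from -0.19 to 0.0490 and Psmb10 from -0.0664 to 0.0625. Settings for the other class I genes and the 20S core were added after the data were seen. The other class I genes at an unadjusted p under 0.05 numbered 2 with the replicate block and 1 without the 3 libraries (2.25% and 11% of all genes). With 1 library left out they numbered 1 to 6, where 4.12% to 8.73% of all genes were called.

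Whether same-numbered EV and sgZrsr2 mice share more than the number is not given. Same-numbered mice correlated at -0.23, -0.09, -0.40 and 0.37 over 4 pairs, and 1 of the 4, mouse 5, correlated best with its own number. With this block, over the 8 libraries of shared numbers, 0 genes passed and 333 had an unadjusted p under 0.05. Without the block it was 609 in the same 8 libraries and 1024 in all 9.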
